A study of Mus musculus with 2 samples.

Results

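The cells described here are 638 of the 16123 cells that passed the quality filters in 2 single-cell libraries, and they were chosen as alveolar fibroblasts, the connective tissue cells of the lung's gas exchange walls. A cell was taken when it had at least 500 detected genes, at most 10% mitochondrial UMIs, no UMI of Ptprc (CD45, a leukocyte surface protein), at most 1 UMI of Cdh5 (VE-cadherin of endothelial junctions) and a UMI of at least 4 of 7 alveolar fibroblast markers. These markers were Inmt, Mfap4, Ogn, Gsta3, Cdo1, Npnt and Robo2. Cells with 4 or more of the 6 mural genes Myh11, Acta2, Cspg4, Postn, Trpc6 and Cox4i2 were left out. The control library gave 318 such cells and the Dnmt1iECKO library gave 320. Because the cells were chosen by their own RNA, their profile is given as a description and without a test.

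Each library was made from the tumors of 3 pooled female mice of 8 to 10 weeks that carried YUMMER1.7, a highly immunogenic mouse melanoma line. The label of the control library gives the genotype as C57BL/6, where the study's methods name controls with the endothelial Cre and the ZsGreen reporter, and the other library came from Cdh5CreERT2;Dnmt1fl/fl;ZsGreenlsl/lsl mice (Dnmt1iECKO), in which tamoxifen deletes Dnmt1 in cells that use the Cdh5 promoter, so in endothelial cells and not in fibroblasts. The labels place the tumors under the skin of the shoulder, whereas the study's methods describe lung tumors after tail vein injection. Live CD31+ CD45- cells were sorted to obtain endothelium, so that the fibroblasts are cells that came through this gate, and 138 of the 638 had a UMI of Pecam1, the gene of CD31. The cell type on the labels is melanoma cells. Tyr, Tyrp1 and Sox10, genes of that lineage, were at 0 UMIs in the selected cells. Pmel had 3 UMIs in the control and 2 in the Dnmt1iECKO library. The levels of these genes in the tumor cells of these libraries are not given here, so that the counts cannot decide whether the label holds. The other 4 of the 8 melanoma markers were detected. Mlana had 0 and 15 UMIs and Dct 4 and 3, while Mitf had 44.4 and 51.2 CPM and Hmga2 24.0 and 56.2 CPM, so that the list summed to 69.6 and 111 CPM (UMIs of the genes as a share of all UMIs of the selected cells, in the usual scaling). With 1 library a condition there is no spread between replicates against which a difference can be set, and no test was possible. Every interval below is a 95% interval for counting error alone, and differences between mice and between library preparations cannot be told apart from those of the genotype.

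The control library held 9301 cells and 123830489 UMIs and the Dnmt1iECKO library 9522 cells and 141433493 UMIs. The selected cells had 5786936 and 6385924 UMIs, with a median of 13509.5 UMIs and 3899 genes per cell in the control and 16486 UMIs and 4202 genes in the Dnmt1iECKO library. Mitochondrial UMIs had a median of 1.52% and 1.55%. The libraries shared 29 cell barcodes, of which 1 was a selected cell in each. Of the 257 control and 263 Dnmt1iECKO cells with the highest Scrublet doublet scores, 1 was a selected cell, and 57 of the 638 held a single Cdh5 UMI.

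Alveolar fibroblasts lie in the alveolar wall next to the epithelium and the capillaries. They build the collagen and elastin scaffold of the wall, keep up basement membranes, and send growth factors such as FGF10, HGF and WNT2 to the alveolar epithelium and angiopoietin-1 to the endothelium. Interferon-gamma (IFNγ), made by T and NK cells, acts on fibroblasts through transcription factors such as IRF1, which turn on chemokines for T cells, antigen presentation by MHC class I and GTPases that defend the cell.

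The 7 markers that chose the cells had, by construction, high levels in both libraries. Inmt, an enzyme that methylates indole amines, had 2246 CPM in control cells and 2614 CPM in Dnmt1iECKO cells. Mfap4, a protein of elastic microfibrils, had 1999 and 1821 CPM, and Npnt, nephronectin of the basement membrane, had 1031 and 1027 CPM. Robo2, a receptor for Slit proteins, had 861 and 713 CPM. Thinned to 2000 UMIs per cell, a UMI of Inmt was found in 81.1% of 270 control and 78.1% of 301 Dnmt1iECKO cells, and in 2.33% and 1.82% of the endothelial cells, which should lack it (unthinned, 92.8% and 88.1% against 8.16% and 8.33%). The endothelial cells had median depths of 10429.5 and 10459.5 UMIs. Genes of the same cell type that the rule did not use were also present. Col13a1, a membrane collagen, had 207 and 202 CPM, against 0.442 and 0.851 CPM in the endothelial cells. Tcf21, a transcription factor of lung mesenchyme, had 200.1 and 192 CPM, and Itga8, the integrin that binds nephronectin, had 518 and 544 CPM. All 15 further alveolar fibroblast genes of the list were detected in both libraries, with a median log2 ratio of -0.06 for Dnmt1iECKO over control.

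The label nevertheless did not hold for all of the cells. By number of markers, 59 control and 60 Dnmt1iECKO cells had 4, 60 and 46 had 5, 83 and 61 had 6, and 116 and 153 had all 7, while 53 and 62 cells just outside the rule had 3. Inmt went from 117 and 134 CPM in the cells with 3 markers, through 335 and 431 CPM in those with 4, to 3836 and 4727 CPM in those with 7. Col13a1 went from 5.38 and 2.51 CPM to 337 and 336 CPM over the same range. Dcn, decorin, a proteoglycan that is higher in the fibroblasts around bronchi and large vessels (adventitial fibroblasts), went the other way, from 2434 and 2348 CPM at 3 markers to 164 and 277 CPM at 7.

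**Figure D1:**
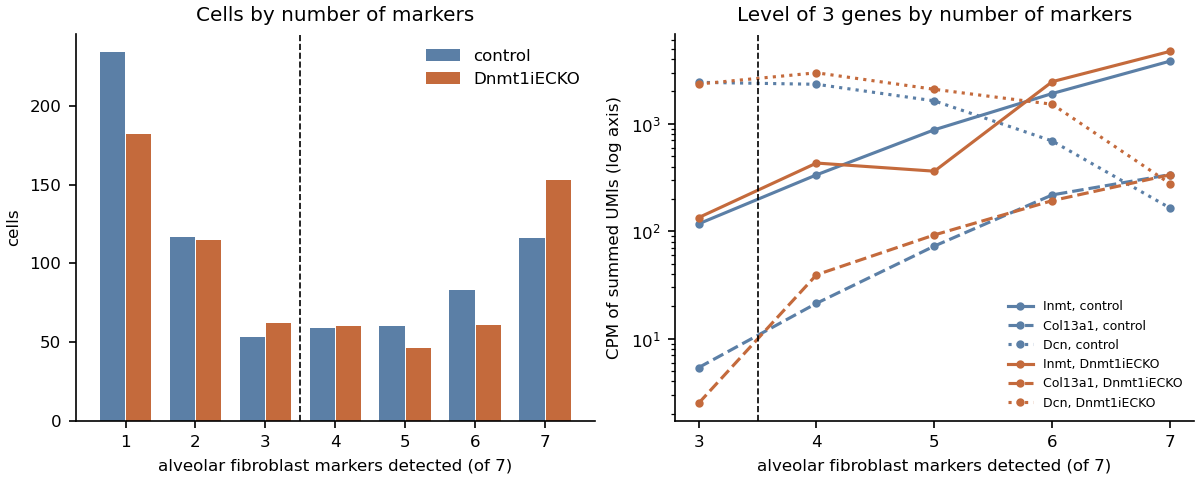
Left, number of cells in each library by how many of the 7 alveolar fibroblast markers they had, with the dashed line at the rule's limit. Right, CPM of summed UMIs (log axis) of 3 genes by number of markers; Inmt and Col13a1 are highest at 7 markers (3836 and 337 CPM in the control library) and, over the 3 to 7 markers plotted, Dcn is lowest there (164 CPM).

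Clustering of the 638 cells on their own gave 7 clusters. In 4 of them, which held 401 cells and 44.2% of the UMIs, Inmt lay between 3095 and 7102 CPM, Col13a1 between 222 and 397 CPM and Dcn at 305.5 CPM or below, and no Wt1 or Pi16 UMI was seen. These 401 cells are called Inmt-high fibroblasts below. The other 237 cells fell into 3 clusters whose leading genes went against the label. One of 97 cells was led by Cxcl9 and Spp1, with Col1a1 at 1988 CPM, Hmga2, which had 1345 and 1246 CPM in the cells of the same filters with none of the 7 markers, at 114 CPM and a median of 40597 UMIs per cell, and it held 34.8% of all UMIs. Another of 77 cells was led by Pi16, with Dcn at 5467 CPM and Wt1, a mesothelial transcription factor, at 126 CPM. The last, of 63 cells, was led by Sftpc, the surfactant protein of alveolar type 2 cells, at 64878 CPM, with Ager of type 1 cells at 2347 CPM and Pecam1 at 229 CPM. Of the cells with at least 6 markers, 331 were Inmt-high and 82 were in the other clusters, so that a stricter marker number removed most but not all of the 237. For this reason the values of the Inmt-high fibroblasts are given for many genes beside those of the 638 selected cells. The libraries did not fill the clusters alike. The cluster led by Sftpc held 43 control and 20 Dnmt1iECKO cells, the cluster led by Pi16 31 and 46, and the cluster led by Cxcl9 43 and 54. Of the Inmt-high clusters, that of 101 cells held 66 and 35, that high in Itga8 38 and 57, that high in Il6 46 and 56 and that of 103 cells 51 and 52. A ratio over the whole selection therefore includes these different shares, and their part in it was not tested.

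**Figure D2:**
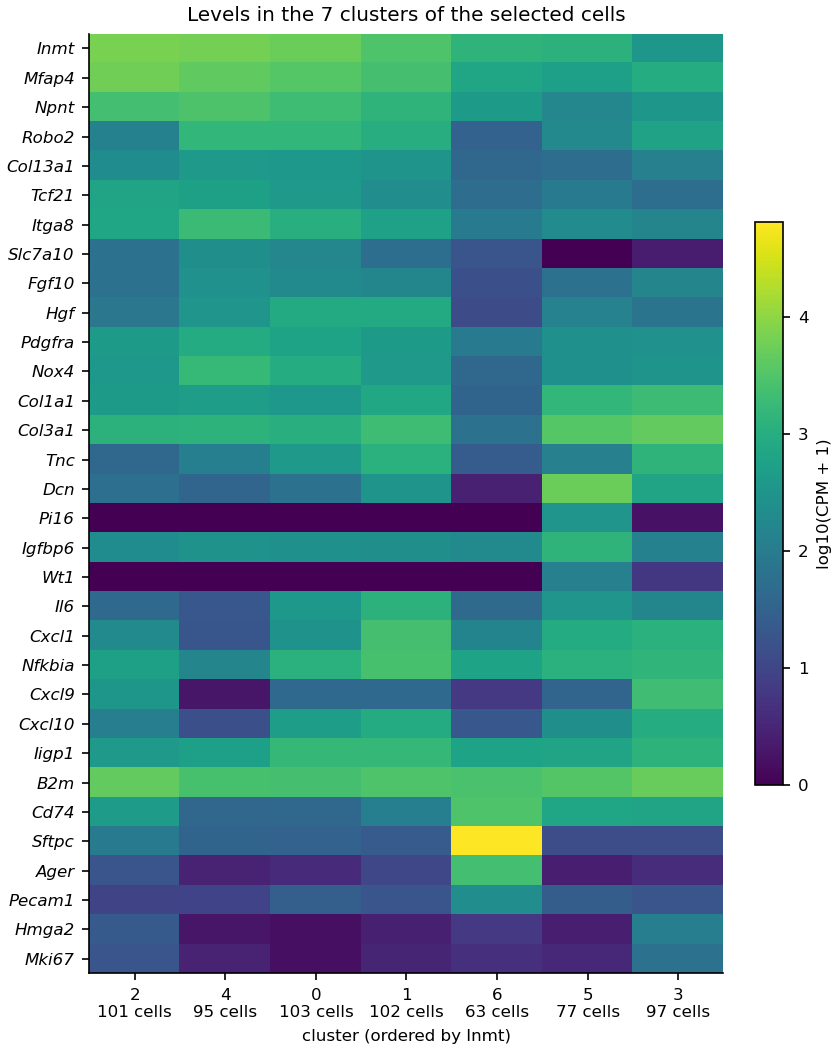
Levels of genes (log10 of CPM + 1, both libraries together) in the 7 clusters of the selected cells, ordered by Inmt. The 4 clusters at the left hold 401 cells with Inmt above 3000 CPM, and the 3 at the right are led by Sftpc (64878 CPM), by Dcn with Pi16 (5467 CPM of Dcn) and by Cxcl9 (2174 CPM).

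The Inmt-high clusters also differed among themselves in what the rule did not use. One of 102 cells had Il6 at 1223 CPM, the neutrophil chemokine Cxcl1 at 2500 CPM and Nfkbia, the inhibitor that NF-kB induces, at 2634 CPM. One of 95 cells had the same genes at 19.2, 18.3 and 151 CPM, with the highest Itga8 (1896 CPM), Nox4 (1705 CPM), a hydrogen peroxide making oxidase, and Fgf10 (271 CPM) of the 7 clusters. The interferon target Iigp1 had 1604 CPM in the first and 521.5 CPM in the second. One of 101 cells had a median of only 1758 UMIs per cell and 1.88% of the UMIs, so that single genes were poorly measured there.

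Of the most abundant RNAs of the selected cells, apart from mitochondrial and ribosomal genes, Gm42418, a locus that overlaps ribosomal RNA, came first with 44554 and 45120 CPM. Mgp, matrix Gla protein, which keeps calcium out of soft tissue, had 22176 CPM in control cells and 18996 CPM in Dnmt1iECKO cells, against 80.6 and 302 CPM in the endothelial cells. The 3′ libraries count transcript ends, so that these levels hold no term for transcript length. Among the 15 most abundant were also Malat1, Fth1, Fos, Jun, Macf1, B2m, Tpt1, Sftpc and the matrix or secreted proteins Sparc, Gsn, Igfbp7, Col3a1 and Sparcl1. Gsn, gelsolin, which cuts actin filaments, had 3867 and 4226 CPM. Igfbp7, a binding protein of insulin-like growth factors, had 3579 and 3335 CPM. Sftpc, with 3305 and 2854 CPM, had 99.2% and 99.7% of its UMIs in 10 cells of each library.

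The selected cells made up 3.96% (95% Clopper-Pearson interval 3.55 to 4.41) of 8021 quality cells in the control and 3.95% (3.54 to 4.397) of 8102 in the Dnmt1iECKO library. The log2 ratio of these shares was -0.0055 (-0.23 to 0.22). The denominator decided this value, since the libraries differed in cells with a Ptprc UMI. Of the cells without one, the selected cells were 4.85% of 6555 in the control and 9.49% of 3373 in the Dnmt1iECKO library, a log2 ratio of 0.97 (0.74 to 1.20). The sort for CD31 can set both shares, and its part in them was not tested.

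Dnmt1, the maintenance DNA methyltransferase, was low in the selected cells. There were 110 UMIs or 19.0 CPM (15.6 to 22.9) in the control and 107 UMIs or 16.8 CPM (13.7 to 20.2) in the Dnmt1iECKO library, a log2 ratio of -0.18 (-0.58 to 0.22), so that a difference was not detectable at this depth. In the endothelial cells, which the deletion aims at, Dnmt1 had 51.2 and 30.8 CPM, a log2 ratio of -0.73 (-0.85 to -0.61). The ratio in the selected cells was below 0 under 14 of 16 alternatives, to -0.61 at the lowest, and above 0 under 2, with 0.42 for cells with at least 3 markers and 0.31 as a mean over cells. UMIs from the 3′ end of Dnmt1 may lie outside the deleted part. Of 7 DNA methylation genes with at least 50 UMIs in the selected cells, 3 were higher and 4 lower, with a median log2 ratio of -0.0020. Dnmt3a, which sets new methylation, had 68.9 and 61.4 CPM and Tet2, which oxidises 5-methylcytosine, had 60.5 and 67.6 CPM. Of 13 germline genes known to be silenced by methylation, 4 had any UMI in the selected cells and none reached 50 UMIs, with a summed level of 5.01 and 6.11 CPM.

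Genes of the interferon response were higher in the fibroblasts of the Dnmt1iECKO library. All 27 IFNγ response genes that reached 50 UMIs were higher, with a median log2 ratio of 0.33, where 50.6% of all 11267 genes with that minimum were higher and their median was 0.0039. Over 17 alternatives the median of this list ran from 0.15 to 0.60. In the Inmt-high fibroblasts 24 of 25 were higher, with a median of 0.57, where 45.6% of all genes were higher. The ratio was above 0 in each of the 7 clusters for Iigp1, an immunity-related GTPase that coats vacuoles of parasites, and for B2m, the light chain of MHC class I. In the smaller clusters some of these intervals included 0. The list did not hold in every cluster. In the cluster of 95 cells high in Itga8, 4 of 7 IFNγ genes were higher, with a median of 0.12, and in the cluster led by Sftpc 3 of 6, with -0.05, whereas in the other 5 clusters the medians lay between 0.40 and 0.70.

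Among the GTPases that IFNγ induces, Iigp1 had 998 CPM (972 to 1024) in control cells and 1340 CPM (1312 to 1369) in Dnmt1iECKO cells, and 1192 and 1454 CPM in the Inmt-high fibroblasts. Gbp2, a guanylate-binding protein, had 214 and 326 CPM, a log2 ratio of 0.61 (0.50 to 0.71), and 154 and 236 CPM in the Inmt-high fibroblasts. Gbp5 had 81.9 and 143 CPM, a log2 ratio of 0.81 (0.64 to 0.97), and in the Inmt-high fibroblasts 113 and 206 CPM. In each library 10 cells held 47.6% and 41.1% of the Gbp2 UMIs and 49.2% and 34.5% of those of Gbp5. For Iigp1 they held 27.2% and 21.5%. After thinning, a Gbp2 UMI was found in 21.5% (16.7 to 26.9) of control and 23.6% (18.9 to 28.8) of Dnmt1iECKO cells. For Iigp1 these shares were 45.9% (39.9 to 52.1) and 55.5% (49.7 to 61.2). Igtp had 58.8 and 95.7 CPM and Irgm1 had 48.4 and 77.2 CPM. Differences were smaller for Gbp4, Gbp8 and Gbp9, whose intervals included 0. Reads of near-identical members of these families, such as Tgtp1 and Tgtp2, may be split between them, so that their single values are uncertain.

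Nlrc5, the activator of MHC class I genes, had the highest ratio of the list, with 20.6 and 40.6 CPM, a log2 ratio of 0.98 (0.66 to 1.31). It was 0.011 in the only cluster of all quality cells in which most cells met the rule (399 of 580). Cd274, the checkpoint ligand PD-L1, had 12.6 and 21.5 CPM in the selected cells, but 13.4 and 7.91 CPM from 35 and 22 UMIs in the Inmt-high fibroblasts. Irf1, the early transcription factor of the response, had 567 and 635 CPM, and in the Inmt-high fibroblasts 747 and 757 CPM, a log2 ratio of 0.02 (-0.07 to 0.11). The T cell chemokine Cxcl10 had 569 and 688 CPM, a log2 ratio of 0.27 (0.21 to 0.34), and 508 and 629.5 CPM in the Inmt-high fibroblasts. It was lower in the cluster led by Pi16, with 451 and 103 CPM and a log2 ratio of -2.13 (-2.44 to -1.82), and in the one high in Itga8, with 23.1 and 6.49 CPM from 11 and 4 UMIs. Irf1 was lower in the latter as well, with 244 and 167 CPM.

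Cxcl9, the other T cell chemokine of the list, came from few cells. It had 729 CPM in control cells and 834 CPM in Dnmt1iECKO cells, but 10 cells held 88.9% of its UMIs in the control and 76.7% in the Dnmt1iECKO library. A UMI of Cxcl9 was found in 10.4% and 18.4% of the selected cells, and after thinning in 7.78% (4.88 to 11.6) and 11.3% (7.95 to 15.4). In the Inmt-high fibroblasts the level was 13.1 CPM against 80.5 CPM, from 34 and 224 UMIs. Of these 224, single cells held 72, 54 and 51, and the cell with 72 had 4 markers and no Inmt UMI. In the cells with at least 6 markers Cxcl9 had 456 CPM against 154 CPM, the other way round. Its direction therefore depended on which cells were counted.

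**Figure D3:**
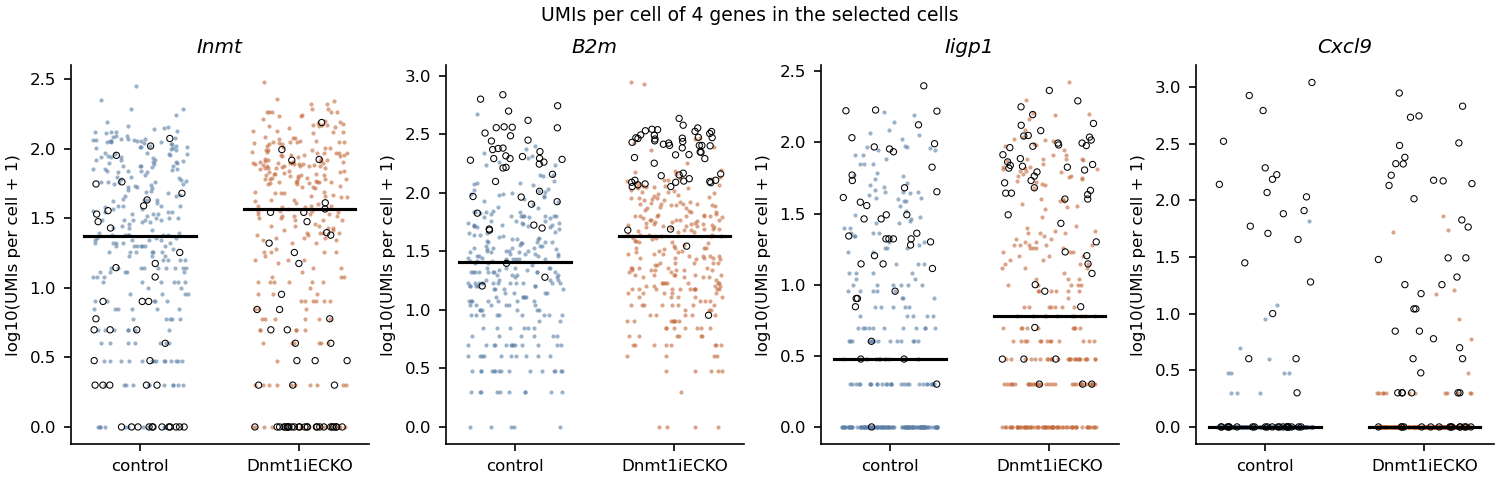
UMIs per cell (log10 of UMIs + 1) of Inmt, B2m, Iigp1 and Cxcl9 in each selected cell of both libraries, with a line at the median and black circles for the cluster of 97 cells led by Cxcl9. The median of B2m is 24.5 UMIs in the control and 42 in the Dnmt1iECKO library, that of Iigp1 is 2 and 5, and that of Cxcl9 is 0 in both.

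The promoters of these genes were read from RefSeq (GRCm38.p6, from 250 bases before to 50 after the gene start) for the 19 of 27 genes that the table held. They were searched on both strands for TTCNNNGAA, the gamma-activated sequence (GAS), and for a pair of TTTC blocks with any 2 bases between them, a form of the element that IRF factors bind (ISRE), and matches could overlap. In 9 genes a GAS, in 10 an ISRE and in 14 either was found, where 8.47% and 3.49% of 27025 genes have one in the same window. A match is a description of letters and not of binding. The windows below are those of 8 genes of the list, with the matched letters in capitals, and Tgtp2, Igtp and Irgm2 are shown together because in each a GAS is followed at once by an ISRE.
Igtp (chr11:58199506-58199535, + strand): gccatTTCTAGGAActGAAACTGAAAgctg
Irgm2 (chr11:58214897-58214926, + strand): gccatTTCCAGGAActGAAACTGAAAgctg
Tgtp2 (chr11:49064269-49064298, - strand): gccatTTCCAGGAAtcGAAACCGAAAccta
Gbp2 (chr3:142620594-142620623, + strand): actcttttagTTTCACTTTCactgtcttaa
Gbp5 (chr3:142496759-142496788, + strand): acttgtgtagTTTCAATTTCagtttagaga
Gbp3 (chr3:142559992-142560021, + strand): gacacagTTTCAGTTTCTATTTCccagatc
Irf1 (chr11:53769913-53769942, + strand): aacagcctgatTTCCCCGAAatgatgaggc
Cxcl10 (chr5:92349083-92349112, - strand): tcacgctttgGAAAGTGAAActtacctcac
Irf1, with a GAS and no ISRE, had a log2 ratio of 0.16 (0.10 to 0.23), and Igtp had 0.70, Tgtp2 0.93, Irgm2 0.34 and Gbp3 0.72. Socs1, Gbp7 and Cxcl10, each with an ISRE, had 0.19, 0.23 and 0.27. Cxcl9, Tap1, Psmb9, Cd274 and Ubd had neither motif in this window, with log2 ratios of 0.20, 0.67, 0.30, 0.77 and 0.63. A relation between motif and ratio was not tested.

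The genes of the type I interferon response were higher as well. All 23 of its genes that reached 50 UMIs were higher in Dnmt1iECKO cells, with a median log2 ratio of 0.63, and 4 were at least 2-fold higher, where 1.37% of all genes with that minimum were. Ifi27l2a, a small interferon-induced membrane protein, had 429 CPM (412 to 446) and 656 CPM (636 to 676), and in the Inmt-high fibroblasts 451 and 623 CPM, but 482 and 291 CPM in the cluster led by Sftpc. Rsad2, viperin, which blocks viral replication, had 2.77 and 9.87 CPM from 16 and 63 UMIs. Irf7, the amplifier of type I interferon, had 32.3 and 53.1 CPM. Isg15 had 203 and 213 CPM and Bst2 had 367 and 382 CPM, with intervals of the ratio that included 0. In the Inmt-high fibroblasts 14 of 16 were higher (median 0.37), but in the cluster high in Itga8 only 2 of 5 were higher (-0.08) and in the cluster led by Sftpc 0 of 3 (-0.97). With each cell thinned to 2000 UMIs the median was 0.20 in the selected cells. That median covers only the genes that still reached 50 UMIs after thinning, so it is not over the same 23 genes. Ifit3, an RNA-binding protein of this response, had 43.0 and 76.6 CPM in the selected cells and 36.9 and 43.5 CPM in the Inmt-high ones, the latter with a log2 ratio of 0.24 (-0.16 to 0.64), and its ratio was -0.12 after thinning.

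**Figure D4:**
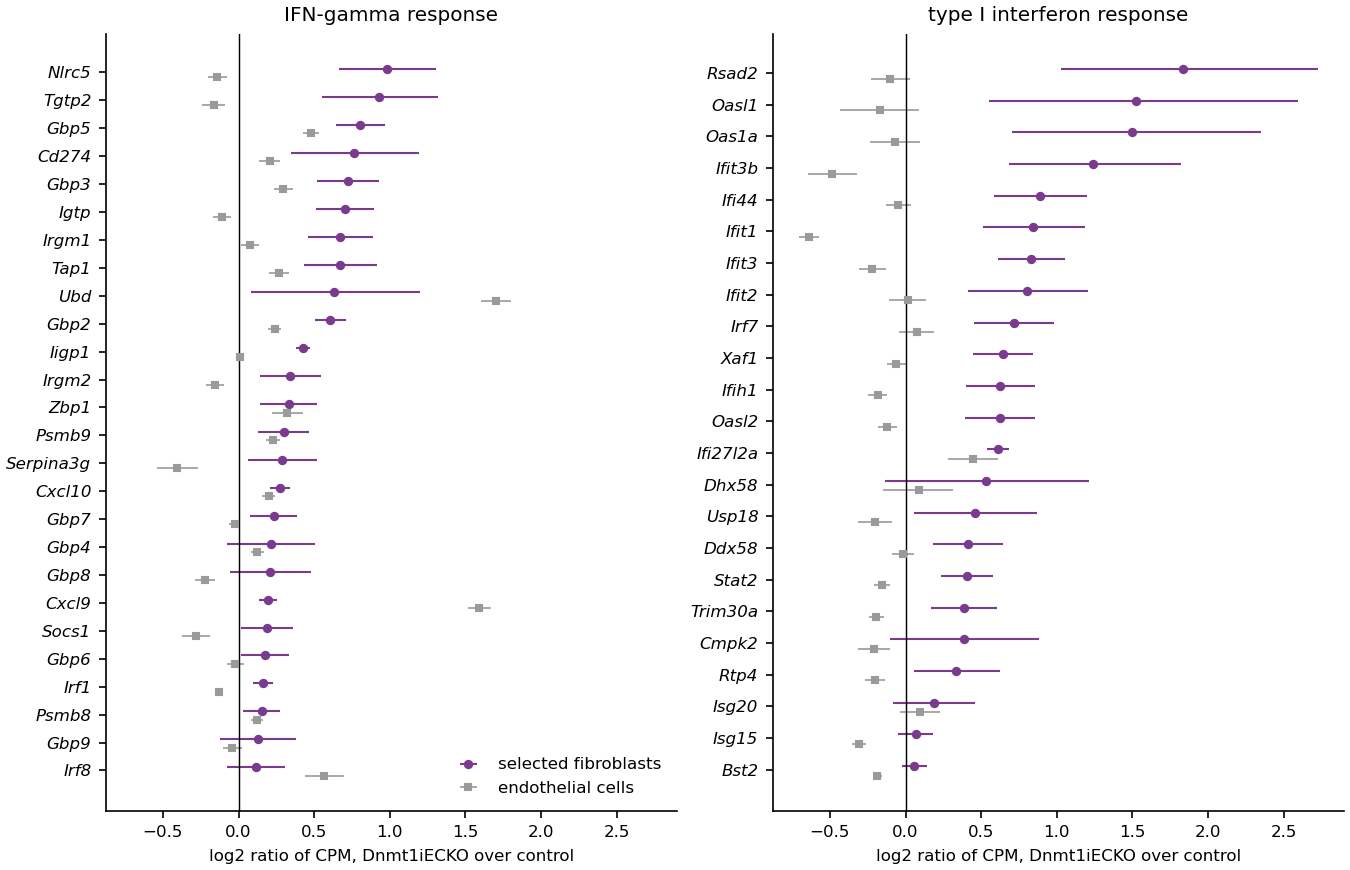
Log2 ratio of CPM (Dnmt1iECKO over control) with its 95% counting interval for genes with at least 50 UMIs of the IFNγ list (left, with 1 gene not shown) and the type I interferon list (right), in the selected fibroblasts (circles) and in endothelial cells (squares). All circles lie above 0, with medians over the whole lists of 0.33 and 0.63, whereas the squares lie on both sides, with medians of 0.09 and -0.12.

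Antigen presentation genes were also higher. Of 16 MHC class I genes 15 were higher, with a median log2 ratio of 0.31, and 15 of 16 in the Inmt-high fibroblasts, with 0.42, although in the cluster high in Itga8 3 of 8 were higher, with -0.07. B2m had 3322 CPM (3275 to 3369) and 3965 CPM (3916 to 4014), and the classical heavy chains H2-K1 and H2-D1 had 1013 against 1242 CPM and 1484 against 1657 CPM. Within the Inmt-high fibroblasts B2m had 2551 and 3095 CPM, H2-K1 514 and 651 CPM and H2-D1 1011 and 1172 CPM. Over the selected cells, 10 cells held 34.7% of the H2-K1 UMIs in the control and 28.2% in the Dnmt1iECKO library. After thinning, a UMI of H2-K1 was found in 61.1% and 62.8% of cells and one of B2m in 95.2% and 96.7%. Tap1, which carries peptides into the endoplasmic reticulum, had 38.7 and 61.7 CPM. H2-T22 had 122.9 CPM in control cells and 122.5 CPM in Dnmt1iECKO cells. Members of this family share sequence, so that their single values are uncertain too.

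MHC class II was higher over the selected cells, but not in every subset of them. All 7 genes with at least 50 UMIs were higher, with a median log2 ratio of 0.82, and Cd74, the invariant chain, had 372 and 663 CPM. Among the Inmt-high fibroblasts all 5 genes that reached the minimum were higher, with a median of 0.77, and Cd74 had 60.7 and 121 CPM, which is a log2 ratio of 1.00 (0.72 to 1.28). This was not so in each cluster, since Cd74 had 39 and 32 UMIs in that of 103 cells and 15 and 91 UMIs in the shallow one of 101 cells. Over all selected cells, 10 cells held 68.9% of the Cd74 UMIs in the control and 59.7% in the Dnmt1iECKO library. A UMI of Cd74 was found in 42.8% of control and 49.1% of Dnmt1iECKO cells, but in 21.9% and 20.3% after thinning. For H2-Aa of the same list the shares were 24.5% and 40.3%, and 11.9% and 11.6% after thinning. At equal depth the share of cells with a UMI was therefore not higher for Cd74 or H2-Aa. In the cells with at least 6 markers Cd74 had 161 and 113 CPM and only 3 of 7 genes of the list were higher, with a median of -0.25. Over all other quality cells, immune cells included, Cd74 had 2968 and 4839 CPM, so that it was higher there too. Among 10 immune markers 9 were detected, with a summed level of 707 and 500 CPM that was mostly Lyz2, a gene that alveolar type 2 cells also use, and Ptprc was at 0 by the rule. Of the 4 immune markers with at least 50 UMIs, 3 were higher and Lyz2 was lower, with a median log2 ratio of 0.87, so that they differed in the same direction as MHC class II. Ctss, a protease of antigen-presenting cells that is in the MHC class II list, had 29 and 92 UMIs, found in 6.92% and 18.4% of cells (1.11% and 4.98% after thinning). In the Inmt-high fibroblasts Ctss had 11 and 47 UMIs, a log2 ratio of 2.00 (1.03 to 3.09), and Dcn had 93.7 and 229 CPM. C1qa, a macrophage gene, had 3.63 and 7.52 CPM and Tyrobp had 3.28 and 6.42 CPM. The part of RNA from other cells in these values was not tested.

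The same lists were read in the 3 most similar or most relevant classes of the series. In 6226 endothelial cells 19 of 30 IFNγ genes were higher in the Dnmt1iECKO library, with a median log2 ratio of 0.09, and 7 of 25 type I genes, with -0.12. In 161 Dcn-high fibroblasts 22 of 28 and 18 of 24 were higher, with medians of 0.65 and 0.48. In that class the 8 melanoma markers summed to 916 and 856 CPM, with Mlana, Tyr, Dct, Tyrp1 and Sox10 at 0. Its cell cycle genes summed to 1626 and 1045 CPM, with 15 of 15 lower. In 110 mural cells 4 of 24 and 0 of 12 were higher, with medians of -0.54 and -1.42, although the summed level of the IFNγ genes was higher there, at 4317.5 and 4793 CPM. MHC class I genes were higher in 11 of 16 (endothelial, median 0.04), 16 of 16 (Dcn-high, 0.55) and 1 of 15 (mural, -0.43). MHC class II genes were higher in 8 of 8 (0.23), 6 of 6 (0.66) and 4 of 4 (0.56), in the same order. Over all genes that reached 50 UMIs, 48.7% were higher in the endothelial cells, 52.5% in the Dcn-high fibroblasts and 43.5% in the mural cells. Differences between these classes were not tested, since each class has 1 library a condition. Markers of other cell types differed between the libraries in the selected fibroblasts as well, in both directions. The 11 endothelial markers summed to 206 and 116 CPM and the 8 alveolar type 2 markers to 4352 and 3607 CPM, of which Sftpc came almost entirely from 10 cells in each library. The 12 Dcn-high fibroblast markers summed to 3889 and 4635 CPM, with 8 of 12 higher, and the 6 mural markers to 256 and 343 CPM. The 13 further mural genes, which the rule did not use, went the other way, with 716 and 572 CPM and 3 of 10 higher. The 8 mesothelial markers summed to 331 and 380 CPM and the 7 alveolar type 1 markers to 370 and 418 CPM. The 5 platelet markers summed to 36.6 and 17.7 CPM. The part of these cells in the interferon values was not tested.

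Matrix genes, the main product of these cells, had medians near 0 in the whole selection. Of 19 fibrillar collagen and matrix assembly genes 8 were higher and 11 lower, with a median log2 ratio of -0.03 and none at 2-fold. Col1a1 had 1189 CPM in both libraries and Col3a1 had 2813 and 2840 CPM, 1640 and 1514 CPM in the Inmt-high fibroblasts. Sparc, a collagen-binding protein of the matrix, had 4539 and 3935 CPM, and Serpinh1, the collagen chaperone of the endoplasmic reticulum, had 749 and 636 CPM. Lum, lumican, was higher in the Dnmt1iECKO library, with 60.5 and 98.7 CPM. The equal level of Col1a1 was a property of the whole selection. In the cluster led by Pi16 it had 1910.4 and 1246 CPM and Col3a1 had 4282 and 3028 CPM. In the cells with at least 6 markers it had 961 and 704 CPM, and 1 of the 19 genes was higher there, with a median of -0.31, whereas in the Inmt-high fibroblasts it had 568 and 548 CPM and the median was -0.16.

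Elastic fibre genes were lower in 9 of 12, with a median log2 ratio of -0.12, but of 0.12 with cells thinned to 2000 UMIs and of 0.14 as a mean over cells. Eln, elastin, had 1020 CPM (994 to 1046) and 935 CPM (912 to 959), with 1048.5 and 1027 CPM in the Inmt-high fibroblasts, Mfap2 had 155 and 118 CPM and Ltbp4, which guides elastin assembly, had 244 and 285 CPM. Basement membrane genes were higher in 7 of 11, with a median of 0.0052. Lama2, a laminin chain, had 572 and 574 CPM and Sparcl1 had 2937 and 2628 CPM.

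Of the 15 growth factors and modulators that act on the alveolar niche, 4 were higher and 11 lower in the Dnmt1iECKO library, with a median log2 ratio of -0.18 (bounds of the genes' intervals at the median -0.31 and 0.04). Fgf10, the ligand that maintains alveolar progenitors, had 163 CPM (153 to 174) and 137 CPM (129 to 147), and in the Inmt-high fibroblasts 203 and 179 CPM. Fgf7 had 126 and 110 CPM. Igf1 had 458 CPM (441 to 476) and 347 CPM (332 to 361), which is a log2 ratio of -0.40 (-0.48 to -0.32), and 338 and 232 CPM in the Inmt-high fibroblasts. Sfrp1, an antagonist of WNT signals, had 763 and 640 CPM. On the other side Wnt2 had 43.7 and 54.2 CPM and Hgf, the ligand of MET, had 357 and 377 CPM with an interval that included 0. Within the Inmt-high fibroblasts the cluster with the most Fgf10 was not the one with the most Hgf, which had 882 CPM in the cluster high in Il6.

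Vascular ligands were split, with 6 of 14 higher and a median log2 ratio of -0.05. Angpt1, which stabilises vessels through TIE2, had 425 CPM (408 to 442) and 471 CPM (455 to 488), and 685 and 823 CPM in the Inmt-high fibroblasts. Its direction differed between clusters, with 740 and 1110.0 CPM in the Inmt-high cluster of 103 cells, but 484 and 393 CPM in the one high in Il6 and 251 and 173 CPM in the cluster led by Cxcl9. Vegfa had 120 and 147 CPM in all selected cells, a log2 ratio of 0.30 (0.16 to 0.45), but -0.07 in the Inmt-high fibroblasts. Cxcl12, the ligand of CXCR4, had 230 and 180 CPM, and Slit2 and Slit3, ligands of ROBO receptors, had 1009 against 902 CPM and 653 against 528 CPM. Sema3a, a repellent of endothelial cells, was the only one at least 2-fold higher, with 19.5 and 44.2 CPM, a log2 ratio of 1.18 (0.86 to 1.51), and had 5.38 and 6.83 CPM in the Inmt-high fibroblasts.

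Genes of activated fibroblasts and TGF-beta targets were mixed, with 7 of 18 higher and a median log2 ratio of -0.08. Tnc, tenascin-C of healing and tumor stroma, had 968 CPM (943 to 993) and 627 CPM (608 to 647), and in the Inmt-high fibroblasts 734 and 589 CPM. In each library 10 cells held 51.8% and 61.4% of the Tnc UMIs, and 31.1% and 30.6% of cells had one. Tnc went the other way in the Inmt-high cluster of 103 cells, with 242 and 535.5 CPM, a log2 ratio of 1.15 (0.91 to 1.39). Ccn1 had 483 and 633 CPM and Inhba, the activin A subunit, had 22.5 and 49.8 CPM. Spp1, osteopontin, had 567 and 319 CPM, with 98.9% and 97.4% of its UMIs in 10 cells of each library. Lrrc15 and Cthrc1, which mark myofibroblasts of tumors and fibrosis, had 3 and 10 UMIs in the control and 3 and 7 in the Dnmt1iECKO library.

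Of 22 inflammatory and NF-kB genes 13 were higher, with a median log2 ratio of 0.06, so that this list stayed near the background while the interferon lists did not. Il6 had 409 and 396 CPM, Vcam1, the adhesion molecule, had 860 and 752 CPM and Icam1 had 323 and 311 CPM, and in the Inmt-high fibroblasts the 3 genes had 670.1 and 645 CPM, 907 and 829 CPM, and 445 and 461 CPM. Cxcl2 had 75.7 CPM (68.8 to 83.1) and 148 CPM (139 to 158), with 90.4% and 87.2% of the UMIs in 10 cells and 29.6 and 196 CPM in the Inmt-high fibroblasts. Of the 545 UMIs there in the Dnmt1iECKO library, 538 were in the cluster high in Il6, while Cxcl2 was lower in the cluster of 103 cells (18.2 and 2.44 CPM) and in the one led by Pi16 (40.1 and 4.42 CPM). Has2, hyaluronan synthase, had 36.3 and 66.2 CPM. Saa3, an acute phase protein, had 488 and 294 CPM, and in the Inmt-high fibroblasts 546 and 181 CPM, with 76.2% and 88.4% of the UMIs of the selected cells in 10 cells. Saa3 was higher in the cluster led by Cxcl9, with 443 and 623 CPM, and its log2 ratio over the alternatives ran from -1.60 to -0.064. Il1rl1, the receptor of IL-33, had the largest ratio of the list, with 17 and 127 UMIs, but 111 of the 127 were in 1 cell, and the Inmt-high fibroblasts had 1 UMI in the control and 0 in the Dnmt1iECKO library. Complement genes were higher in 6 of 9, with a median of 0.11 that became -0.02 with no Cdh5 UMI allowed and -0.06 with at least 3 markers. C3 had 1053 and 1247 CPM, yet its log2 ratio was -0.0076 in the Inmt-high fibroblasts, and C7 had 804 and 944 CPM.

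The remaining lists that are not cell type markers had medians near 0, apart from the cell cycle. Of 17 xenobiotic and redox genes 10 were higher, with a median log2 ratio of 0.01. Fmo2, the flavin monooxygenase of lung, had 1584 and 1711 CPM, and Cbr2, a carbonyl reductase, had 58.6 and 30.4 CPM. Of 13 lipid and retinoid genes 6 were higher, with a median of -0.0033. Lpl, lipoprotein lipase, had 202 and 116 CPM, and in the Inmt-high fibroblasts 181 and 105 CPM, while Angptl4, an inhibitor of that enzyme, had 32.1 CPM and 79.1 CPM. Aldh1a1, which makes retinoic acid, had 285 and 360 CPM. Immediate early and dissociation genes were higher in 6 of 15, with a median of -0.01, and Fos and Jun had 5339 against 5231 CPM and 3433 against 3348 CPM. In contrast, the heat shock genes Hspa1a and Hspa1b, whose near-identical sequences make single values uncertain, had 210.1 against 124 CPM and 130.1 against 52.6 CPM. Cell cycle genes were lower in 7 of 12, with a median of -0.51 that was above 0 under 7 of 17 alternatives (-0.87 to 0.77). In the cells with at least 6 markers Mki67 had 3.41 and 7.57 CPM and Top2a 9.96 and 15.9 CPM. Over all selected cells Mki67 had UMIs in only 5 control and 19 Dnmt1iECKO cells, with a single control cell holding 173 of 189 UMIs.

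**Figure D5:**
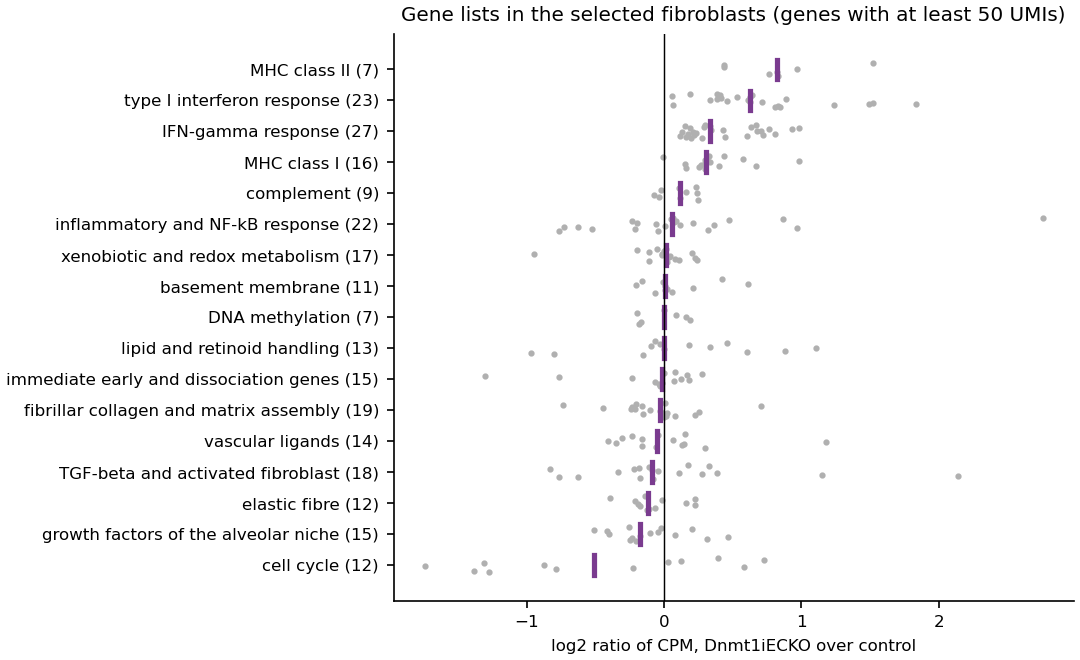
Log2 ratio of CPM (Dnmt1iECKO over control) in the selected fibroblasts for the genes with at least 50 UMIs of each list (points) with the list's median (bar), and the number of genes in parentheses. Of the lists that are not cell type markers, MHC class II (0.82), the type I interferon (0.63) and IFNγ (0.33) lists and MHC class I (0.31) lie highest. Of the same lists, cell cycle genes (-0.51, with a direction that turned under 7 of 17 alternatives) lie lowest.

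Over all genes, levels in the fibroblasts of both libraries were close. Among 9547 genes with at least 100 UMIs the median log2 ratio was 0.0020 and 92.2% lay within 0.5 of 0. At least 2-fold higher in the Dnmt1iECKO library were 73 genes (0.765%) and at least 2-fold lower were 65 (0.681%). Under other settings the counts were 5 higher and 14 lower after thinning to 2000 UMIs and 35 and 37 in the Inmt-high fibroblasts. With a minimum of 10 UMIs they were 663 and 522. The minimum was applied to the UMIs of each setting, so that the genes tested differed in number. Those numbers are not given here, and these counts are not shares of the 9547 genes. Of the 138 genes at least 2-fold higher or lower among the 9547, 57 had over 25% of their UMIs in a single cell. A UMI in under 10% of the cells of the higher library was seen for 77 of them. With a UMI in at least 10% of cells and a level of at least 0.5 times that of the other quality cells, 8512 genes were left, of which 27 were higher and 16 lower by this rule of size. The 12 furthest in each direction are described next.

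On the higher side, Apod, a lipocalin that binds lipids (chr16:31296192-31314808 in GRCm38, - strand), had 29.2 CPM in control cells and 192 CPM in Dnmt1iECKO cells, a log2 ratio of 2.72 (2.49 to 2.96), with 69.8% and 74.8% of the UMIs in 10 cells. In the Inmt-high fibroblasts Apod had 16.5 and 43.5 CPM. Angptl4 (chr17:33773750-33781830, - strand) was the most widespread of these genes, with a UMI in 22.3% of control and 49.7% of Dnmt1iECKO cells, and had 37.3 and 109 CPM in the Inmt-high fibroblasts against 1.82 and 0.936 CPM in the endothelial cells. In the cluster high in Itga8 it had 21.0 and 141 CPM, in the cluster high in Il6 31.5 and 94.1 CPM, and in the cluster led by Pi16 8.26 and 45.04 CPM. Slco5a1, a membrane transporter, had 9.16 and 22.7 CPM, and 14.98 and 36.7 CPM in the Inmt-high fibroblasts. Pianp had 9.85 and 23.5 CPM. Zmat4, Thsd7a, Cacng7, 1700109H08Rik, Slc7a7 (an amino acid transporter) and Chrm3 (a muscarinic receptor) had between 3.63 and 8.47 CPM in the control and between 11.9 and 24.6 CPM in the Dnmt1iECKO library. Over the alternatives the log2 ratio was as low as 0.52 for Thsd7a, 0.22 for Cacng7, 0.33 for 1700109H08Rik and 0.36 for Slc7a7. Junos lies on the strand opposite Jun and had 16.4 and 40.2 CPM, where reads of Jun and Junos can be told apart only by strand. Ifit3b of the type I list had 6.57 and 15.5 CPM, but a log2 ratio of -0.35 after thinning. Some of these genes were higher in the other quality cells too. Apod had 3.28 and 18.1 CPM there, Pianp 5.33 and 16.0 CPM, Slco5a1 1.66 and 3.39 CPM and Angptl4 4.23 and 6.57 CPM. Zmat4, Chrm3, Cacng7, 1700109H08Rik, Junos, Slc7a7 and Ifit3b were lower there. Thsd7a had 22.3 and 22.4 CPM there, but 34.0 and 76.8 CPM in the endothelial cells, where Chrm3 had 34.15 and 67.9 CPM.

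On the lower side, Ccl11, eotaxin, which draws eosinophils (chr11:82057823-82062955, + strand), had 98.3 CPM in control cells and 26.2 CPM in Dnmt1iECKO cells, a log2 ratio of -1.91 (-2.17 to -1.66), and 23.4 and 6.83 CPM in the Inmt-high fibroblasts. In each library 10 cells held 71.0% and 73.7% of the Ccl11 UMIs, and 13.8% and 9.69% of cells had one. Upk1b, a uroplakin of urothelium and mesothelium (chr16:38773184-38800328 in GRCm38, - strand), had 76.4 and 30.2 CPM. Its UMIs were in 35.5% of the control and 1.88% of the Dnmt1iECKO cells, and all 193 UMIs of the Dnmt1iECKO library were in 6 cells of the cluster led by Pi16, in which the control had 166. In the Inmt-high fibroblasts there were 246 UMIs or 94.5 CPM in the control, spread over the 4 clusters as 105, 74, 59 and 8 UMIs, and none in the Dnmt1iECKO library. The control level is 87.7-fold above the limit of 3 counts that a count of 0 allows there (1.08 CPM). With the control's counting error included, the 95% interval of the log2 ratio reaches up to -6.145. The endothelial cells had 0.142 and 0 CPM. Wnt4 had 47.3 and 18.5 CPM, and 43.4 and 14.4 CPM in the Inmt-high fibroblasts, but 37.8 and 60.9 CPM in the cluster led by Pi16. Rpl29, a ribosomal protein gene, had 596 and 184 CPM, and the endothelial cells had 642 and 184 CPM, so that it differed across the libraries and not in the fibroblasts alone. Cemip, which breaks down hyaluronan, had 72.9 and 27.7 CPM, but a log2 ratio of -0.026 after thinning, and Aspn, asporin of the matrix, had 111 and 45.3 CPM with 35.7% of its UMIs in 1 cell and a log2 ratio from -1.56 to 0.28 over the alternatives. Hspa1b is given above. Mgme1, Dubr, Lrrn3, 8030451A03Rik (opposite Tnc) and Pwwp3b had between 14.7 and 43.4 CPM in the control and between 5.48 and 18.3 CPM in the Dnmt1iECKO library. Pwwp3b turned to a log2 ratio of 0.26 after thinning. Some of these genes were lower in the other quality cells too. Dubr had 15.8 and 7.55 CPM there, Hspa1b 216 and 75.7 CPM, Lrrn3 7.11 and 2.97 CPM and Mgme1 11.5 and 7.65 CPM. Pwwp3b had 2.91 and 2.41 CPM. Ccl11, Wnt4, Upk1b, 8030451A03Rik and Aspn were higher there, with 0.853 and 3.77 CPM for Ccl11, and Cemip had 2.29 and 2.30 CPM.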

How the data were processed

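The authors prepared GEM-X 3′ v4 libraries and deposited raw UMI counts per gene and called cell, made with Cell Ranger 9.0.1 (mm10). The members and gene lists were chosen with earlier results of these data known. UMIs were summed over the chosen cells of each library and expressed as CPM. Levels have exact Poisson intervals, ratios exact conditional ones and shares Clopper-Pearson ones, all at 95%. Genes needed 100 UMIs for counts over all genes and 50 for the 31 lists. Named genes were those of the lists, the 15 most abundant, and the 12 furthest each way with a UMI in 10% of cells and at least 0.5 times the CPM of other cells in the higher library. Nox4 and Gdpd3 were named after their values were seen. Endothelial cells had at least 2 UMIs of Cdh5 and 1 of Pecam1, mural cells at least 4 of the 6 mural genes, and Dcn-high fibroblasts at least 4 of Dcn, Col1a1, Col14a1, Serpinf1, Dpt, Clec3b and Pi16. All of these classes had no Ptprc UMI. Endothelial cells and Dcn-high fibroblasts had fewer than 4 alveolar markers and fewer than 4 mural genes. Mural cells and Dcn-high fibroblasts had at most 1 Cdh5 UMI. Clustering used scanpy 1.11.5 and leidenalg 0.10.2 (2000 variable genes, 15 components, 20 neighbours, resolution 0.8). No doublets were removed. Alternatives varied the filters, the rule, the scaling and the minimum, and 3 of 17 were added after seeing the data. The calculations (Python 3.11.15, scipy 1.17.1) were tested on simulated data. The study's tests on single cells were not repeated. Some genes of the lists are counted in them but not reported singly here.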

Additional observations from a re-analysis of the deposited data

Results flagged for a closer look

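The median log2 ratio of the IFNγ response genes was 0.332 in the selected fibroblasts and -0.536 in the mural cells, opposite directions of the median in 2 cell classes of the same libraries. The summed level of these genes was higher in both classes, with a log2 ratio of 0.34 (0.32 to 0.36) in the fibroblasts and 0.15 (0.08 to 0.22) in the mural cells. For the type I interferon response genes it was 0.625 in the selected fibroblasts, -1.42 in the mural cells and -0.12 in the endothelial cells. These differences were not tested, since each class has 1 library a condition. The mural cells were 62 in the control and 48 in the Dnmt1iECKO library, and their alveolar type 2 markers summed to 4147 and 8.94 CPM.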

How the results depend on the processing

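Over 17 alternatives the median log2 ratio stayed above 0 for the IFNγ response (0.15 to 0.60), the type I interferon response (0.11 to 0.66) and MHC class I (0.11 to 0.42). No paired analysis was possible because each condition has 1 library, and for the same reason no replicate could be left out. Of 963 values of 57 single genes, 24 in 13 genes turned direction where the reported interval had excluded 0. Some genes whose reported interval included 0 crossed 0 as well: Col1a1 ran from -0.45 to 0.30, Col3a1 from -0.39 to 0.25 and Il6 from -0.088 to 0.27. The values below are log2 ratios or their medians unless said otherwise, and the cause of each move was not tested. The minimum of UMIs was applied anew under each alternative, so that its counts and medians can cover other genes than the main values.

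With at least 3 of 7 markers, Dnmt1 was 0.42, Spp1 0.053, Vegfa -0.19, the IFNγ response 0.60, complement -0.065, fibrillar collagen -0.19 and immediate early genes -0.14, with 167 genes at least 2-fold higher and 119 lower. With at least 5 markers, Cxcl9 was -0.23 and immediate early genes 0.044. With at least 6 (added after seeing the data), Aspn was 0.28, Cd274 -0.17, Cd74 -0.51, Cxcl9 -1.57, H2-Aa -0.25, MHC class II -0.25, complement -0.0023, fibrillar collagen -0.31 and immediate early genes 0.11. In the 4 Inmt-high clusters (also added), C3 was -0.0076, Cd274 -0.77, Cxcl1 0.15, Spp1 0.77, Vegfa -0.073, the IFNγ response 0.57, the type I response 0.37 and immediate early genes 0.086, with 35 genes higher and 37 lower. In the only cluster of all quality cells in which most cells met the rule, the share was 0.38, Dnmt1 -0.61, Aspn 0.041, Cd74 -0.055, H2-Aa -0.19, MHC class II -0.088, the type I response 0.11 and immediate early genes 0.071. With Cdh5 at 0, complement was -0.016 and immediate early genes 0.025. With at least 2000 genes per cell, the share was 0.26. Thinned to 2000 UMIs, Ifit3 was -0.12, Ifit3b -0.35, Pwwp3b 0.26, Vegfa -0.033, elastic fibre 0.12, fibrillar collagen 0.098, the type I response 0.20 and immediate early genes 0.059, with 5 genes higher and 14 lower. As a mean over cells, Dnmt1 was 0.31, Cxcl1 0.059, Ifit3b -0.17, Inmt -0.030, Vegfa -0.090, elastic fibre 0.14, the type I response 0.26 and immediate early genes 0.14, with 163 higher and 139 lower. With a minimum of 10 UMIs, 663 genes were higher and 522 lower.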

Other observations

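Gdpd3, a glycerophosphodiester phosphodiesterase named here after its values were seen, had 11 UMIs in the selected fibroblasts of the control and 261 in those of the Dnmt1iECKO library, or 1.90 and 40.9 CPM. The endothelial cells had 6.21 and 142 CPM and all other quality cells 5.25 and 123 CPM. Rpl29 went the other way in all of these cells, with 803 and 352 CPM in the other quality cells.

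Hgf had 677 and 772 CPM in the Inmt-high fibroblasts of the control and Dnmt1iECKO libraries. Between the clusters this differed in direction, with 561 and 1174 CPM in the cluster of 103 cells and 975 and 800 CPM in the cluster of 102 cells high in Il6. Igf1 was lower in the Dnmt1iECKO library in both, with 199 and 139 CPM and with 518 and 336 CPM.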
